A study of Mus musculus with 12 samples.

Results

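The endothelial identity genes were 10 genes, found by symbol among the 53801 genes of the count and TPM tables: *Pecam1*, *Cdh5*, *Tie1*, *Cldn5*, *Esam*, *Emcn*, *Aplnr*, *Apln*, *Plvap* and *Vwf*. The question asked of them was whether 7 stable identity genes and 3 genes taken as activated, *Apln*, *Plvap* and *Vwf*, moved alike after acute myocardial infarction (AMI). RNA was sequenced from the whole hearts of male C57BL/6N mice that were 10 to 14 weeks old at surgery, with 4 hearts and 4 libraries in each group. The day 1 AMI and day 7 AMI hearts were taken 1 and 7 days after ligation of the left anterior descending coronary artery, and the sham hearts came from mice after sham surgery, whose day of collection is not given in the sources used here. The labels name no transgene, deletion or drug for any group, and isoflurane anesthesia is the one agent in the protocol. Each library holds infarct, border and remote muscle together. Nothing in the labels names the animal behind each library, so p-values measure the spread between these libraries.

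Endothelial cells line every vessel of the heart, and in the myocardium most of them sit in capillaries beside the cardiomyocytes. They are recognized by the proteins that seal the contacts between neighbouring cells, by receptors such as TIE1, and by surface sialoglycoproteins such as endomucin. A resting cell changes its programme when a vessel sprouts: apelin is a classic product of sprouting tip cells, its receptor is carried by venous and growing endothelium, PLVAP builds the diaphragms of fenestrated and venous vessels, and von Willebrand factor is stored in granules for release upon injury.

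Each library held 23204551 to 32166517 counts. Counts were scaled by edgeR's TMM method and are given as CPM, the counts of a gene per 1000000 counts of its library, and the TMM factors were 0.781 to 0.917 in sham, 1.01 to 1.06 in day 1 AMI and 1.10 to 1.17 in day 7 AMI hearts. Mitochondrial transcripts took 17.9% to 27.4% of the counts in sham hearts, 12.1% to 15.9% on day 1 and 13.2% to 19.2% on day 7. A count of 3 was worth 0.0933 to 0.129 CPM of a library, and the lowest value of any of the 10 genes was 9.49 CPM, so all were far above the floor, which covers counting error only. The sham hearts were uneven: replicate 2 held 1736 CPM of the hemoglobin gene *Hba-a1* against 202 to 461 in the other sham hearts, and replicate 4 held 66.3 CPM of the atrial gene *Bmp10* against 0.0970 to 9.28. Values without these hearts stand beside each result that they end. Where no other test is given, an adjusted p is that of edgeR's quasi-likelihood test, fitted once to all 12 libraries, with Benjamini-Hochberg adjustment over the 15306 genes that passed the filter on low counts, all 10 endothelial genes among them. A gene was called at an adjusted p under 0.05, and the stricter rule for differentially expressed genes (DEGs) also asked for a fold change (FC) of 2 or greater.

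In GRCm38, as annotated by GENCODE M21, *Pecam1* (ENSMUSG00000020717) lies at chr11:106654217-106750628, *Cdh5* (ENSMUSG00000031871) at chr8:104101625-104144511, *Tie1* (ENSMUSG00000033191) at chr4:118471191-118490061, *Cldn5* (ENSMUSG00000041378) at chr16:18776847-18778262, and *Esam* (ENSMUSG00000001946) at chr9:37528078-37538319. *Emcn* (ENSMUSG00000054690) lies at chr3:137341067-137432185, *Aplnr* (ENSMUSG00000044338) at chr2:85136225-85139923, *Apln* (ENSMUSG00000037010) at chrX:48025146-48034853, *Plvap* (ENSMUSG00000034845) at chr8:71497765-71511752, and *Vwf* (ENSMUSG00000001930) at chr6:125546774-125686679. All are protein-coding, and no exon of another gene overlaps theirs on either strand, so their reads are not shared with an annotated neighbour.

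The bases ahead of the start site are shown for 3 of the genes, because regulators of the ETS family, which bind around a GGAA core, are known to act on endothelial genes. Whether they act on these genes in these hearts was not tested. RefSeq's promoter table (GRCm38.p6) matched 4 of the 10 genes, and *Tie1* was left out because its window held annotated exon. The 200 bases from 250 to 51 before the start site are given 5′ to 3′ on the strand of the gene, with GGAA and its reverse complement TTCC in capitals. *Emcn* lies on the plus strand at chr3:137340828-137341027, *Cldn5* on the plus strand at chr16:18776597-18776796, and *Apln* on the minus strand at chrX:48034904-48035103.
*Emcn*: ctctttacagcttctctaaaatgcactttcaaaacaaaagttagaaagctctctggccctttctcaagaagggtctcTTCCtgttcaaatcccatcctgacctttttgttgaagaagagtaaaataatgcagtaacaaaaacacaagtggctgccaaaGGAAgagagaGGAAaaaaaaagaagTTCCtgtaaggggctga
*Cldn5*: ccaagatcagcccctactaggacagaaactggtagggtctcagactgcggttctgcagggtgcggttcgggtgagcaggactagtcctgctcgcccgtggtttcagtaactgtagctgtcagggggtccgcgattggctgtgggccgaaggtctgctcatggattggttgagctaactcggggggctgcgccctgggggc
*Apln*: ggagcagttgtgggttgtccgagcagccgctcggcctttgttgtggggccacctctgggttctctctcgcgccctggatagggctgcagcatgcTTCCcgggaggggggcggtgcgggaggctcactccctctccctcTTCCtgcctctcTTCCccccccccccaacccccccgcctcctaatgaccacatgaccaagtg
The *Emcn* window held 4 such cores, the *Apln* window 3 and the *Cldn5* window 0. A GGAA core on either strand stood in 89.2% of all 32851 promoter windows of this length, with a mean of 2.3 cores per window. A match therefore describes these letters and marks no binding site.

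Set against each other per length of transcript, in TPM, the transcripts of a gene per 1000000 transcripts, the cell contact genes *Pecam1* and *Cdh5* had the highest means in sham hearts. *Pecam1* was at 64.7 ± 7.02 TPM (SD, n = 4) and *Cdh5* at 62.5 ± 10.2, followed by *Vwf* at 60.3 ± 17.5, *Esam* at 46.4 ± 7.87, *Tie1* at 36.5 ± 7.29, *Emcn* at 30.7 ± 1.35 and *Cldn5* at 20.9 ± 8.06. *Aplnr* at 11.8 ± 7.32, *Plvap* at 9.83 ± 2.24 and *Apln* at 5.87 ± 2.06 TPM were the lowest. The hearts of neighbours in this order overlapped throughout. By day 7 the order of levels had changed: *Cdh5* led at 161 ± 7.11 TPM, ahead of *Pecam1* at 144 ± 5.24 with overlapping hearts. *Aplnr* had moved from the eighth place to the fourth, at 71.8 ± 4.91 TPM, above *Vwf* at 62.4 ± 5.65, and *Apln* was still the lowest at 21.8 ± 8.32. Neighbours whose hearts did not overlap on day 7 were *Pecam1* above *Esam*, *Esam* above *Aplnr*, and *Vwf* above *Emcn*.

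On day 1 most of these genes had not moved past the test. Of the 10 genes, 2 were higher than in sham, *Apln* and *Plvap*, where 22.0% of all genes tested were called higher, and 2 were lower, *Vwf* and *Emcn*, where 19.9% were called lower. At a FC of 2 or greater 1 was higher, *Apln*, against 7.79% of all genes, and 0 were lower, against 2.98%. By day 7, 9 of the 10 genes had risen above sham, where 30.9% of all genes had, and 1 was lower, *Vwf*, against 28.4%. Of these, *Aplnr*, *Plvap* and *Apln* passed a FC of 2 on day 7, 3 genes where 15.3% of all genes did, and none fell that far, against 5.88%. From day 1 to day 7, 7 genes rose against 24.2% of all genes tested, and 0 fell against 22.8%. *Aplnr* and *Cdh5* passed a FC of 2 in that comparison, 2 genes against 8.55% of all genes, and 0 fell that far against 2.69%. The median log2 FC of the 10 genes was -0.17 on day 1 and 0.63 on day 7 against sham, beside -0.01 and 0.03 over all genes. The hearts of sham and day 1 did not overlap for 2 genes that were higher (19.6% of all genes) and 1 that was lower (17.1%), those of sham and day 7 for 7 that were higher (28.3%) and 0 that were lower (24.7%), and those of day 1 and day 7 for 7 that were higher on day 7 (23.5%) and 0 that were lower (20.9%). Against sham, both contrasts share the sham hearts. In bulk tissue, a change in the number of endothelial cells and a change in RNA per cell cannot be told apart.

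**Figure D1:**
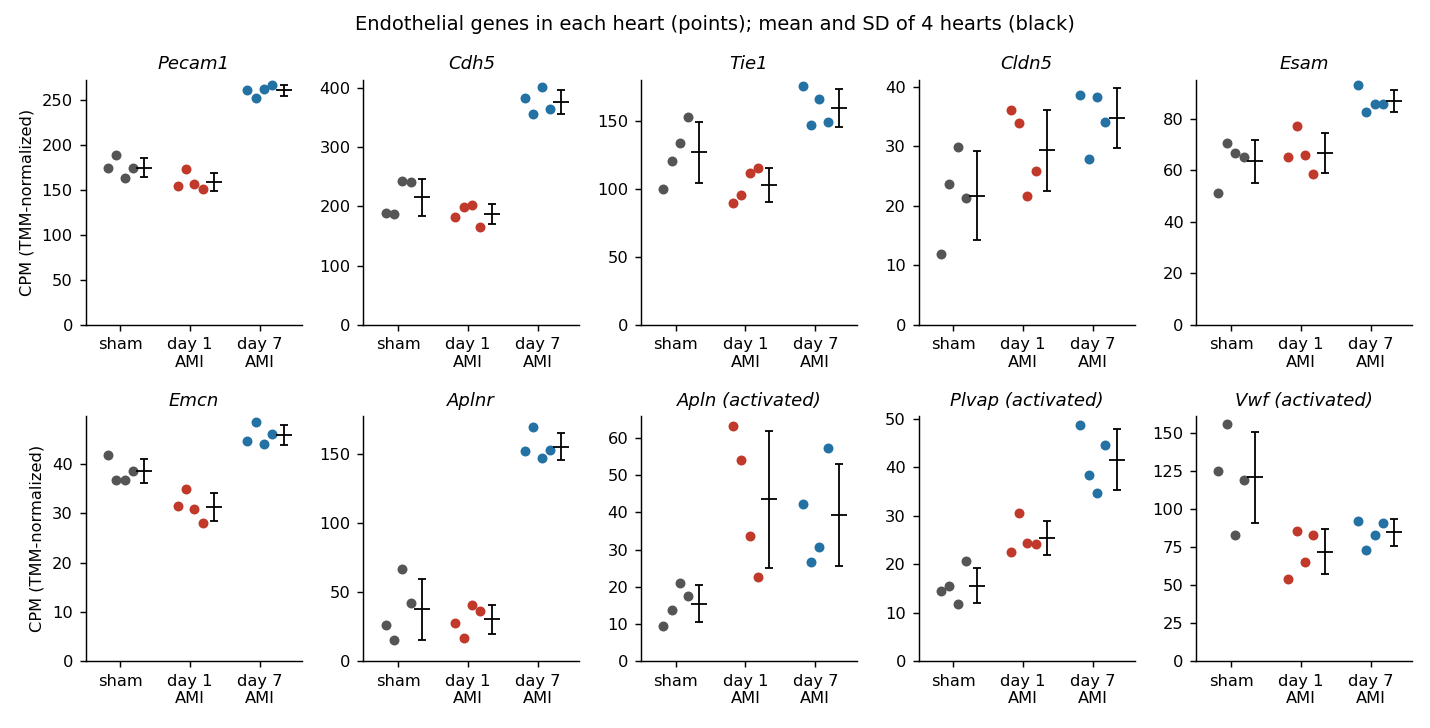
TMM-normalized CPM (vertical axes, starting at 0) of the 10 endothelial genes in each of the 12 hearts, with sham in grey, day 1 AMI in red and day 7 AMI in blue, and the mean and SD of 4 hearts in black. Day 7 hearts stand above all others for *Pecam1*, *Cdh5*, *Esam*, *Emcn*, *Aplnr* and *Plvap*, whereas *Apln* is already raised on day 1 and *Vwf* has its lowest mean on day 1.

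Among the contact genes, *Cdh5*, which encodes VE-cadherin of the adherens junction, was at 189, 187, 243 and 242 CPM in the sham hearts, 183, 198, 202 and 165 on day 1, and 383, 356, 402 and 364 on day 7. The sham and day 1 hearts overlapped, and each day 7 heart lay above all others. *Cdh5* was 1.75-fold higher on day 7 than in sham (log2 FC 0.81, SE 0.105, adjusted p = 1.56e-05) and 2.01-fold higher than on day 1 (log2 FC 1.01, SE 0.105, adjusted p = 5.67e-06), while on day 1 its log2 FC was -0.20 (adjusted p = 0.133). *Pecam1*, which encodes the adhesion molecule CD31 that platelets and leukocytes also carry, was at 174, 188, 163 and 174 CPM in sham, 154, 173, 156 and 150 on day 1, and 261, 252, 262 and 266 on day 7. Its day 7 hearts again stood apart, and within that group the spread was the smallest of the 10 genes relative to the mean, with an SD of 5.83 around 260.3 CPM. *Pecam1* was 1.49-fold higher than in sham on day 7 (log2 FC 0.58, SE 0.0722, adjusted p = 1.14e-05) and its log2 FC on day 1 was -0.14 (adjusted p = 0.129).

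*Esam*, an adhesion molecule of endothelial tight junctions, stood at 51.3, 70.8, 66.6 and 65.0 CPM in sham, 65.0, 77.4, 65.9 and 58.7 on day 1, and 93.1, 82.8, 85.8 and 85.9 on day 7. The day 7 hearts did not overlap with either other group, and *Esam* was 1.37-fold higher than in sham (log2 FC 0.45, SE 0.104, adjusted p = 0.00178). *Cldn5*, the claudin that seals endothelial tight junctions, was far less even, at 11.9, 23.7, 29.9 and 21.3 CPM in sham, 36.1, 33.9, 21.7 and 25.8 on day 1, and 38.7, 27.8, 38.3 and 34.2 on day 7. Sham replicate 3 reached into the day 7 range, and the day 7 rise of 1.60-fold (log2 FC 0.68, SE 0.226, adjusted p = 0.0184) came with an exact permutation p of 0.0571 for 4 hearts against 4, whose smallest possible two-sided p is 0.0286. On day 1 the log2 FC of *Cldn5* was 0.43 (adjusted p = 0.139).

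*Tie1*, an orphan receptor tyrosine kinase that works with the angiopoietin receptor TEK, was at 99.99, 121, 134 and 153 CPM in sham, 89.4, 95.4, 112 and 115 on day 1, and 176, 147, 166 and 149 on day 7. The sham hearts overlapped both AMI groups, while the day 1 and day 7 hearts were apart. *Tie1* was 1.55-fold higher on day 7 than on day 1 (log2 FC 0.63, SE 0.124, adjusted p = 0.000851). Against sham the rise was 1.26-fold (log2 FC 0.33, SE 0.123, adjusted p = 0.0318), and this call did not hold without sham replicate 1 (log2 FC 0.23, adjusted p = 0.1), sham replicate 2 (0.31, 0.0728), day 7 AMI replicate 1 (0.28, 0.0859) or day 7 AMI replicate 3 (0.31, 0.0683). *Emcn*, the sialoglycoprotein of capillary and venous endothelium, was at 41.8, 36.7, 36.7 and 38.6 CPM in sham, 31.4, 35.0, 30.9 and 28.0 on day 1, and 44.6, 48.6, 43.9 and 46.1 on day 7. The 3 groups did not overlap, although the steps between them were small. *Emcn* fell 1.23-fold on day 1 (log2 FC -0.30, SE 0.0812, adjusted p = 0.00993), and on day 7 it was 1.19-fold above sham (log2 FC 0.25, SE 0.0808, adjusted p = 0.0149). The day 1 call of *Emcn* was lost when libraries were scaled by their totals alone (log2 FC -0.02, adjusted p = 0.856), and it turned direction on the TPM scale (0.11, adjusted p = 0.276 by limma).

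**Figure D2:**
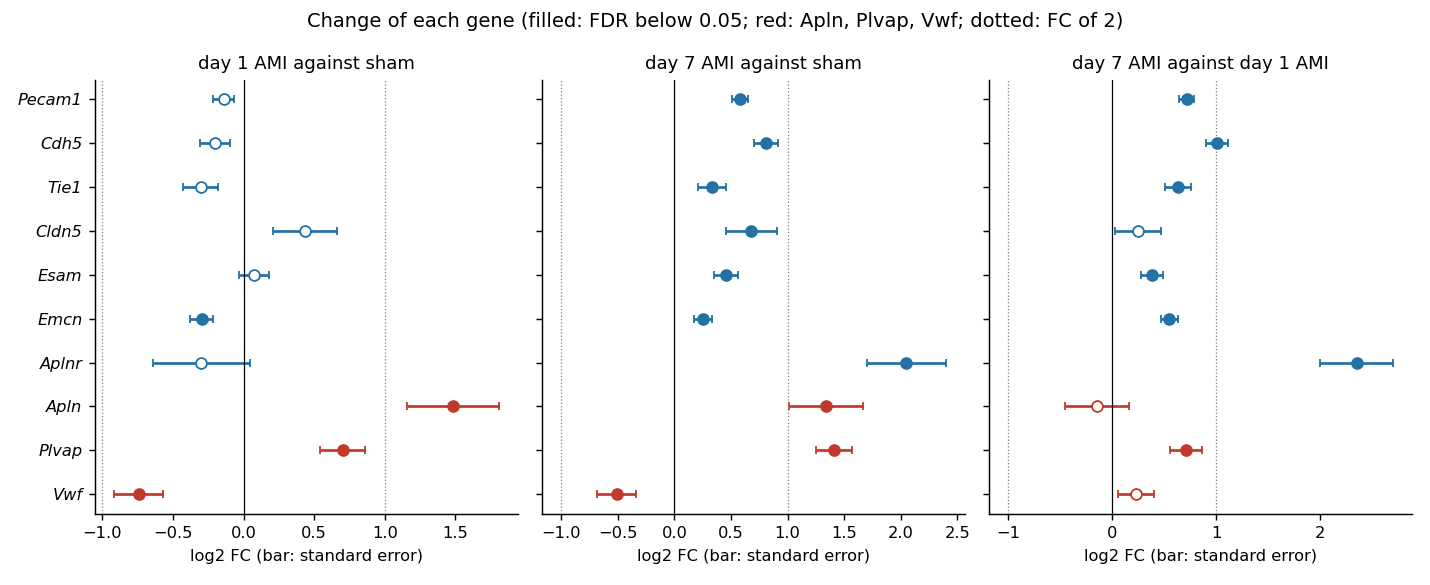
Log2 FC (horizontal axes) of the 10 genes in the 3 comparisons with TMM scaling, with bars for 1 standard error on either side, filled points for genes called by edgeR, red for *Apln*, *Plvap* and *Vwf*, and dotted lines at a FC of 2. On day 7 every gene but *Vwf* lies right of 0, and *Aplnr* lies farthest right at 2.05; without TMM scaling, on the TPM scale, *Vwf* also lies right of 0 in that comparison, at 0.09.

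The ligand and the receptor of the apelin system moved at different times. *Apln*, which encodes the peptide apelin, was at 9.49, 13.7, 21.2 and 17.6 CPM in sham, 63.0, 54.1, 33.8 and 22.8 on day 1, and 42.3, 26.6, 30.7 and 57.1 on day 7. Both AMI groups lay above every sham heart and overlapped with each other. *Apln* was 2.80-fold higher on day 1 (log2 FC 1.48, SE 0.325, adjusted p = 0.00251) and 2.53-fold higher on day 7 (log2 FC 1.34, SE 0.324, adjusted p = 0.0026), and between the AMI days its log2 FC was -0.15 (adjusted p = 0.726). *Aplnr*, which encodes the G protein-coupled receptor of apelin, was at 26.5, 15.1, 66.5 and 41.8 CPM in sham, 27.4, 17.1, 40.6 and 36.6 on day 1, and 152, 169, 147 and 152 on day 7. The sham hearts spread more than 4-fold and took in the whole day 1 range, while the day 7 hearts were close together and far above. The receptor was 4.14-fold higher on day 7 than in sham (log2 FC 2.05, SE 0.351, adjusted p = 0.000172) and 5.10-fold higher than on day 1 (log2 FC 2.35, SE 0.353, adjusted p = 0.000119). Its day 1 log2 FC of -0.30 did not pass the test (adjusted p = 0.51).

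Per length of transcript, the TPM of *Aplnr* over that of *Apln* was 2.34, 0.926, 2.64 and 1.99 in the sham hearts, 0.365, 0.265, 1.01 and 1.35 on day 1, and 3.01, 5.34, 4.03 and 2.24 on day 7. The day 1 and day 7 ratios did not overlap, and the sham hearts reached into both ranges. Of the other genes of the axis, *Nos3*, the endothelial nitric oxide synthase, was 1.45-fold higher on day 1 (log2 FC 0.54, SE 0.154, adjusted p = 0.0123). *Apela*, the gene of the other ligand of the receptor, did not pass the filter on low counts.

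**Figure D3:**
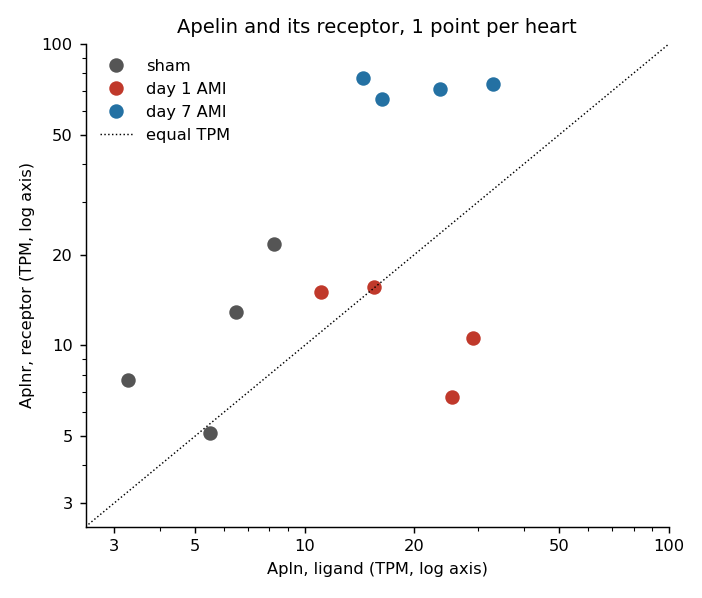
TPM of *Aplnr* (vertical log axis) against TPM of *Apln* (horizontal log axis), with 1 point per heart, sham in grey, day 1 AMI in red, day 7 AMI in blue, and a dotted line at equal TPM. The day 7 hearts lie between 65.7 and 77.4 TPM of *Aplnr*, and the 4 day 1 hearts share the receptor range of sham at higher *Apln*.

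*Plvap*, the gene of the endothelial diaphragm protein, was at 14.6, 15.6, 11.8 and 20.6 CPM in sham, 22.6, 30.6, 24.3 and 24.2 on day 1, and 48.6, 38.4, 34.7 and 44.6 on day 7. It was the 1 gene of the 10 whose 3 groups rose in steps without overlap. *Plvap* was 1.63-fold above sham on day 1 (log2 FC 0.70, SE 0.158, adjusted p = 0.00294), 2.66-fold above sham on day 7 (log2 FC 1.41, SE 0.158, adjusted p = 4.22e-06), and 1.63-fold above day 1 on day 7 (log2 FC 0.71, SE 0.153, adjusted p = 0.0018).

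*Vwf* went the other way. This gene of von Willebrand factor, which platelets also store, was at 125, 156, 83.4 and 119 CPM in sham, 54.5, 85.6, 65.7 and 83.3 on day 1, and 92.1, 73.1, 83.0 and 91.2 on day 7. Sham replicate 3, the lowest sham heart, overlapped with both AMI groups, and the other 3 sham hearts lay above them. *Vwf* was 1.67-fold lower on day 1 (log2 FC -0.74, SE 0.173, adjusted p = 0.00379, exact permutation p = 0.0571) and 1.43-fold lower on day 7 (log2 FC -0.51, SE 0.173, adjusted p = 0.0196, exact permutation p = 0.0857). When libraries were scaled by their totals alone neither call held (log2 FC -0.47, adjusted p = 0.05 on day 1, and -0.11, adjusted p = 0.607 on day 7). The day 7 call was lost without sham replicate 2, the heart rich in hemoglobin transcripts (log2 FC -0.37, adjusted p = 0.0728), and without day 7 AMI replicate 2 (-0.45, 0.0596).

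The deposited TPM gave another picture of *Vwf*. It was at 55.7, 85.0, 43.5 and 57.0 TPM in sham, 37.8, 50.5, 30.3 and 36.4 on day 1, and 54.6, 66.1, 61.8 and 67.0 on day 7. The day 1 hearts were again mostly below sham (log2 FC -0.61 on log2(TPM + 1), adjusted p = 0.0159 by limma), but the day 7 hearts lay within the sham range (0.09, adjusted p = 0.689) and above each day 1 heart (0.69, adjusted p = 0.00818). Reads counted per unit of TPM, set to the libraries' typical value, ran from 0.785 to 1.45 for *Vwf* across the 12 libraries, a 1.85-fold spread that was larger than in 97.3% of 9790 genes, where *Pecam1* spread 1.06-fold. Which scale follows the transcript was not tested. Of the platelet list, 1 of the 8 genes tested was higher and 3 were lower on day 1, against 22.0% and 19.9% of all genes. On day 7, 1 was higher and 1 lower, which lay under the shares of all genes, 30.9% and 28.4%, in both directions. The summed level of the platelet list was 43.2 to 84.4 TPM in sham, 112 to 163 on day 1 and 65.3 to 111 on day 7. No gene of that list was at 0 in every heart of a group. On day 1 *Pf4*, which macrophages also make, was 2.34-fold higher, and *Gp1bb*, *Gp9* and *Gp1ba*, which encode parts of the platelet receptor for von Willebrand factor, were 4.36-, 3.25- and 2.13-fold lower at group means of at most 2.59 CPM, and without sham replicate 2 the number called lower was 1. On day 7 *Itgb3*, an integrin gene, was 2.37-fold higher with its call lost without any 1 of 3 hearts, and *Gp1ba* was 1.57-fold lower. *Gp9* and the day 1 value of *Gp1ba* are named after their values were seen. In the sham heart with the most *Vwf*, replicate 2, the platelet list was also highest, at 84.4 TPM, and its part in the result was not tested.

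The genes taken as stable and as activated did not divide by their changes. The 7 stable genes had a median log2 FC of -0.20 on day 1 and 0.58 on day 7, and the 3 activated genes 0.70 and 1.34. The activated set held *Vwf*, called lower at both times, although its day 7 call was lost with library totals alone and on the TPM scale. The stable set held the largest rise on day 7, that of *Aplnr*. On day 7 the stable genes other than *Aplnr* had log2 FCs of 0.25 to 0.81, and *Apln* and *Plvap* had 1.34 and 1.41. In mean log2 CPM, the 3 activated genes minus the 7 stable genes came to -1.20 ± 0.264 in sham, -0.65 ± 0.241 on day 1 and -1.22 ± 0.254 on day 7 (SD, n = 4). The day 1 hearts, from -0.84 to -0.33, lay above each sham heart, from -1.58 to -0.97, whereas the day 7 hearts, from -1.44 to -0.93, overlapped with sham. The stable mean includes *Aplnr*, which went from a mean log2 CPM of 5.025 in sham to 7.275 on day 7. A gap without *Aplnr* is not given, so the day 7 overlap does not describe the other stable genes alone. In mean log2 TPM the gap of the day 1 hearts, from -0.96 to -0.32, overlapped with that of the sham hearts, from -1.44 to -0.84.

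Within each heart, the other genes were then divided by *Cdh5*, taken as the member most restricted to endothelial cells, so that the scaling of a library drops out. *Cdh5* itself was 1.75-fold higher on day 7 than in sham and 2.01-fold higher than on day 1. On this scale a gene that rose less than *Cdh5* therefore comes out lower on day 7. Relative to *Cdh5*, *Apln* was at 5.07%, 7.35%, 8.73% and 7.33% in sham, 34.5%, 27.3%, 16.8% and 13.8% on day 1, and 11.1%, 7.49%, 7.64% and 15.7% on day 7. The day 1 hearts stood above all sham hearts, and the day 7 hearts reached back into the sham range. By limma on these log2 ratios, adjusted over 15305 genes, *Apln* per *Cdh5* was 3.09-fold higher on day 1 (log2 1.63, SE 0.267, adjusted p = 0.000139) and 2.17-fold lower on day 7 than on day 1 (log2 -1.12, SE 0.267, adjusted p = 0.000848), and on day 7 against sham its log2 change was 0.51 (adjusted p = 0.0871). That last value passed the test without day 7 AMI replicate 2 (0.65, adjusted p = 0.0465) or day 7 AMI replicate 3 (0.64, 0.0495) and with *Pecam1* in place of *Cdh5* (0.75, 0.0341).

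On this scale 3 of the 9 genes, *Apln*, *Plvap* and *Cldn5*, were higher on day 1, against 27.1% of all genes, and 0 were lower, against 6.12%. The *Cldn5* ratio was 1.60-fold higher (adjusted p = 0.0174) with overlapping hearts, and its call was lost without sham replicate 1 (log2 0.47, adjusted p = 0.0605), day 1 AMI replicate 1 (0.56, 0.0731) or day 1 AMI replicate 2 (0.63, 0.0503). *Plvap* per *Cdh5* was 1.89-fold higher on day 1 (log2 0.92, SE 0.178, adjusted p = 0.000649) and 1.52-fold higher on day 7 (log2 0.61, SE 0.178, adjusted p = 0.00462). On day 7 against sham 2 genes were higher, *Plvap* and *Aplnr*, against 10.1% of all genes, and 4 were lower, *Vwf*, *Emcn*, *Tie1* and *Esam*, against 66.7%. *Aplnr* was at 14.1%, 8.10%, 27.4% and 17.3% of *Cdh5* in sham and at 39.6%, 47.5%, 36.6% and 41.8% on day 7, which did not overlap and made a 2.70-fold rise (log2 1.43, SE 0.293, adjusted p = 0.000214). *Vwf* fell from 66.4%, 83.3%, 34.3% and 49.4% of *Cdh5* in sham to 24.0%, 20.6%, 20.7% and 25.0% on day 7, again without overlap (2.46-fold lower, SE of the log2 change 0.217, adjusted p = 2.61e-05). The ratios of *Emcn*, *Tie1* and *Esam* were 1.48-, 1.39- and 1.28-fold lower (adjusted p = 0.00119, 0.00346 and 0.0192), and the *Esam* call was lost without sham replicate 2 (adjusted p = 0.0819) or day 7 AMI replicate 3 (0.0581). From day 1 to day 7, 1 gene was higher per *Cdh5*, *Aplnr*, against 3.03% of all genes, and 6 were lower, *Apln*, *Vwf*, *Cldn5*, *Esam*, *Emcn* and *Tie1*, against 78.3%. Leaving out day 1 AMI replicate 4 ended the *Tie1* call of that comparison (adjusted p = 0.0551). On day 7 against sham and against day 1, the lower genes were a smaller share of the 9 than of all genes. On day 1 the *Vwf* ratio had a log2 change of -0.54 (adjusted p = 0.0645), which passed the test without sham replicate 3 (-0.77, 0.00603) or day 1 AMI replicate 4 (-0.67, 0.0327). With *Pecam1* as the reference the lower calls on day 7 against sham numbered 2 in place of 4, and those on day 7 against day 1 numbered 3 in place of 6. No share of all genes is given for that reference.

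**Figure D4:**
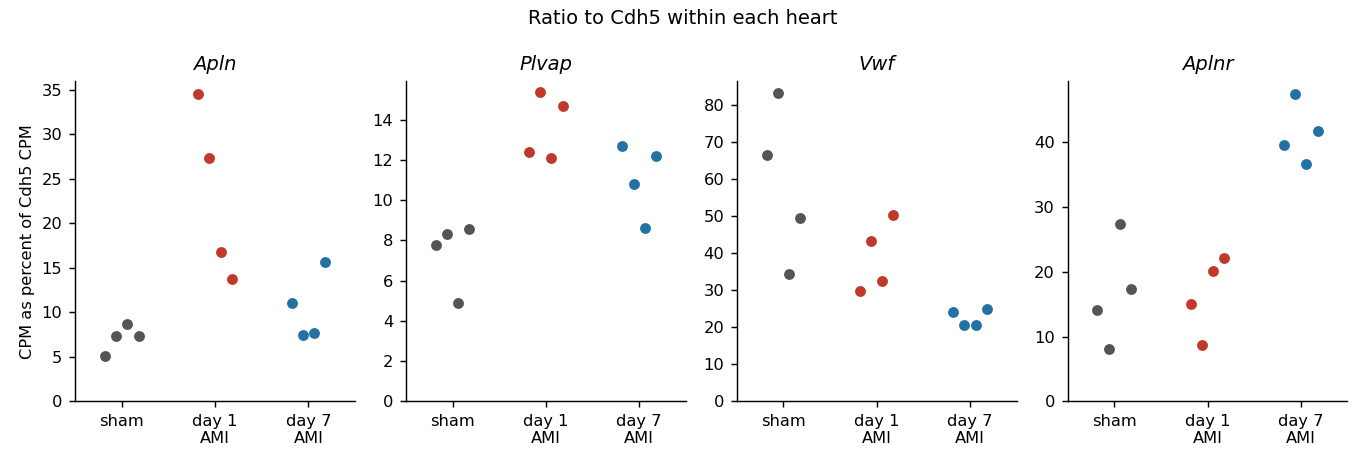
CPM of *Apln*, *Plvap*, *Vwf* and *Aplnr* as a percent of the *Cdh5* CPM of the same heart (vertical axes, starting at 0), with 1 point per heart and the groups along the horizontal axis. *Apln* per *Cdh5* is highest on day 1, at 13.8% to 34.5%, *Vwf* per *Cdh5* is lowest on day 7, at 20.6% to 25.0%, and *Aplnr* per *Cdh5* is highest on day 7, at 36.6% to 47.5%.

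Other endothelial lists show which kinds of genes moved beside the 10. Their counts stand against all genes tested, of which 22.0% were called higher and 19.9% lower on day 1, and 30.9% higher and 28.4% lower on day 7. These shares hold for TMM scaling, and none are given for the other scalings. The arterial and junction lists on day 1, and the junction list on day 7, lay under these shares in both directions. Of 20 further pan-endothelial genes, 3 were called higher and 4 lower on day 1, and 14 higher and 1 lower on day 7, with median log2 FCs of -0.14 and 0.51; with library totals alone the day 1 calls became 6 higher and 0 lower, with a median of 0.14. *Cd93* and *Cd34*, both surface glycoproteins of endothelium, were 2.51- and 2.404-fold higher on day 7 (adjusted p = 2.98e-07 and 1.16e-07). *Kdr*, the main receptor of VEGF-A, was 1.54-fold lower on day 1 (adjusted p = 0.00201), and *Ecscr*, an endothelial surface protein, was 1.69-fold higher (adjusted p = 0.000877). *Flt1*, the decoy receptor of VEGF-A, was the 1 gene lower on day 7 (1.56-fold, adjusted p = 3.96e-05), and it is named here after its value was seen. Of 15 regulators from the ETS, SOX, KLF and related families, 0 were higher and 3 lower on day 1, among them *Klf4* and *Gata2* (1.40- and 1.36-fold lower, the *Klf4* call lost without any 1 of 3 hearts), and 8 were higher and 1 lower on day 7, led by *Hhex* and *Ets1* (1.96- and 1.92-fold higher). With library totals alone the day 1 calls of the regulators turned to 3 higher and 0 lower. This list shares *Erg*, *Fli1*, *Sox7* and *Sox18* with the pan-endothelial list and *Sox17* with the arterial list.

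Most genes of the capillary list were lower at both times. Of its 12 genes, 0 were higher and 9 lower on day 1, and 1 was higher and 9 lower on day 7, with median log2 FCs of -0.79 and -0.56. *Car4*, a carbonic anhydrase of the capillary surface, was 2.17-fold lower on day 1 (adjusted p = 0.00405), and *Cd300lg*, a receptor of capillary endothelium, was 2.09-fold lower (adjusted p = 2.27e-05). On day 7 *Lpl*, the lipoprotein lipase that cardiomyocytes make for the capillary wall, was 2.403-fold lower (adjusted p = 5.37e-06), and the fatty acid transporter gene *Cd36*, which cardiomyocytes also express, was 1.93-fold lower (adjusted p = 1.27e-05). The 1 higher gene was the homeobox gene *Meox2* (1.41-fold, adjusted p = 0.0271), named after its value was seen, and that call was lost without sham replicate 2. The fall held on day 1 with library totals alone (8 lower) and on the TPM scale (6 lower), whereas on day 7 these scales left 3 and 2 lower, and the median turned to 0.03 on the TPM scale.

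Tip cell and venous genes were among those that rose. Of 10 tip cell and sprouting genes, 4 were higher and 0 lower on day 1, led by *Pgf*, a VEGF family ligand, and *Angpt2*, the angiopoietin of remodelling vessels (2.91- and 2.71-fold, adjusted p = 0.0055 and 0.00554). On day 7, 7 were higher and 0 lower, each past a FC of 2, led by *Esm1*, a tip cell proteoglycan, and the chemokine receptor gene *Cxcr4* (4.15- and 3.96-fold, adjusted p = 8.77e-05 and 2.7e-05). Which cells of the heart made these transcripts was not tested. Of 8 venous genes, 4 were higher and 0 lower at each time, with *Selp*, the P-selectin gene, 5.15-fold higher on day 1 (adjusted p = 0.00083) and *Tll1* 2.01-fold (adjusted p = 0.046, lost without any 1 of 8 hearts), and *Bgn* and *Nrp2*, genes that fibroblasts also express, 6.53- and 2.86-fold higher on day 7. Of 6 adhesion genes tested, 3 of them shared with the venous list, 3 were higher and 0 lower at each time: the E-selectin gene *Sele* was 4.33-fold higher on day 1 and 2.41-fold on day 7, and *Cx3cl1*, a membrane-bound chemokine gene, was 2.51-fold higher on day 7. Without sham replicate 2 the day 7 counts rose to 7 venous and 5 adhesion genes. Of 12 arterial genes, 1 was higher and 2 lower on day 1, the lower ones being *Bmx* and *Hey1* (1.74- and 1.68-fold, the *Hey1* call lost without any 1 of 7 hearts), and 5 were higher and 0 lower on day 7, led by the netrin receptor gene *Unc5b* and the connexin gene *Gja5* (3.54- and 1.93-fold); the median log2 FC of this list on day 1 was 0.05.

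Of 11 junction partner genes tested, which many other cells share, 2 were higher and 2 lower on day 1, with *Jam2* 1.87-fold lower and the 2 higher calls lost without sham replicate 2, day 1 AMI replicate 1 or day 1 AMI replicate 2, and 2 were higher and 1 lower on day 7, with *Ctnnd1* 1.41-fold higher and *Jam2* 1.30-fold lower, although *Jam2* was 0.20 higher in log2 on the TPM scale (adjusted p = 0.041 by limma). Of 6 lymphatic genes tested, 2 were higher and 3 lower at each time. *Pdpn*, which fibroblasts and macrophages can also carry, was 7.09-fold higher on day 1 and 3.14-fold on day 7, while *Reln* was 1.82-fold lower on day 1 and *Prox1*, which cardiomyocytes also express, 1.76-fold lower on day 7. Of 4 endocardial genes, 0 were higher and 2 lower on day 1, and 2 were higher and 2 lower on day 7, the lower ones at both times being *Npr3* and *Cytl1* (1.61- and 1.57-fold on day 1, 2.14- and 2.48-fold on day 7). The medians of the junction and lymphatic lists on day 1, -0.22 and -0.26, and those of the lymphatic and endocardial lists on day 7, -0.35 and -0.37, turned above 0 with library totals alone.

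**Figure D5:**
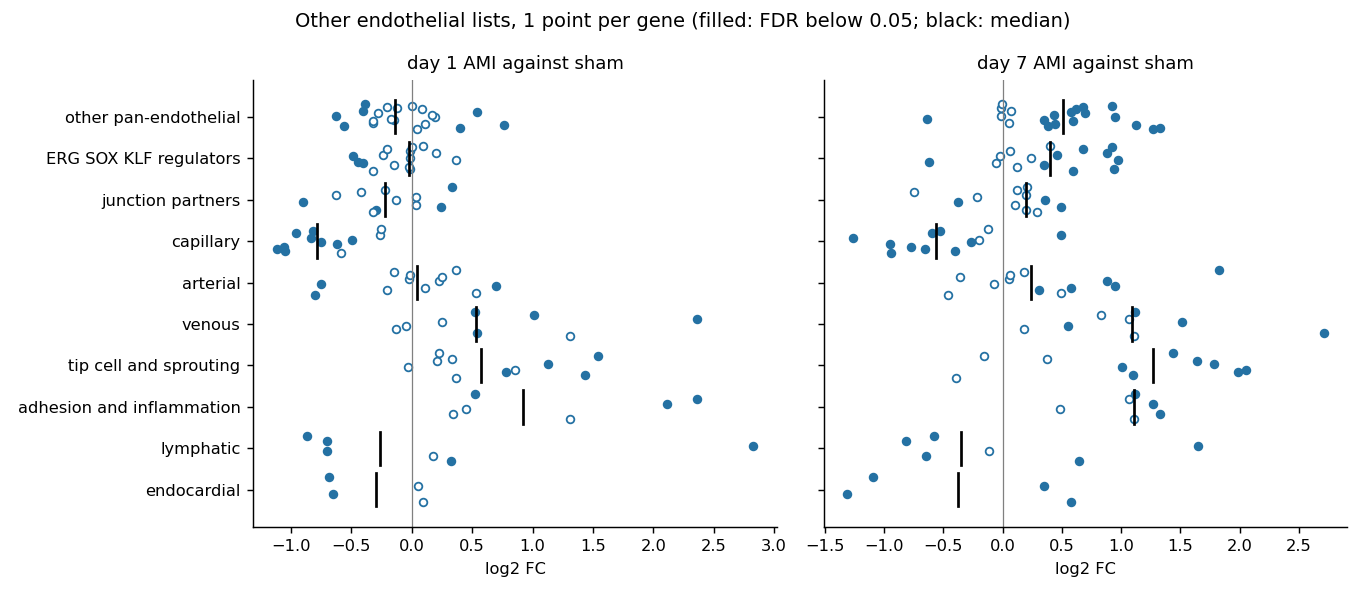
Log2 FC (horizontal axes) of each gene of the other endothelial lists on day 1 and day 7 against sham with TMM scaling, with 1 point per gene, filled where called by edgeR, and the median of each list in black. The capillary list lies left of 0 on day 1 (median -0.79) and day 7 (-0.56, which becomes 0.03 on the TPM scale), and the tip cell list lies to the right (0.57 and 1.27).

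Genes of other cells of the heart moved at the same time. The counts of these genes stand against the same shares of all genes, 22.0% higher and 19.9% lower on day 1, and 30.9% and 28.4% on day 7. The atrial list on day 1 lay under these shares in both directions. All 10 leukocyte genes were higher at both times, with *Cd52* 4.66-fold and *Itgb2* 4.48-fold on day 1 and *Ptprc* 4.76-fold and *Cd52* 4.40-fold on day 7, and their summed level was 84.5 to 165 TPM in sham, 391.5 to 628 on day 1 and 484 to 830 on day 7. Of 11 cardiomyocyte genes, 0 were higher and 10 lower at each time, with *Myh6* and *Ckm* both 1.83-fold lower on day 1 and *Myl2* and *Tnni3* 2.59- and 2.55-fold lower on day 7, and their sum was 89040 to 101600 TPM in sham, 71440 to 82710 on day 1 and 62560 to 74590 on day 7. Fibroblast genes were higher for 7 of 9 and lower for 1 on day 1 (*Postn* 3.40-fold, *Col3a1* 2.98-fold) and higher for 9 of 9 on day 7 (*Postn* 63.6-fold, *Col1a1* 21.4-fold), with sums of 507 to 613, 723 to 955 and 3769 to 6656 TPM. Mural genes, of pericytes and smooth muscle, were higher for 2 of 10 and lower for 3 on day 1 (*Cnn1* 4.21-fold higher, *Abcc9* 1.87-fold lower), and higher for 6 and lower for 2 on day 7 (*Cnn1* 5.92-fold, *Tagln* 4.80-fold), with sums of 362 to 464, 384 to 478 and 698 to 1364 TPM. No gene of these 4 lists was at 0 throughout a group. Of 6 erythroid genes tested, 0 were higher and 4 lower at each time, and without sham replicate 2 this count was 0 on both days. *Slc4a1*, the anion exchanger gene of red cells, was 10.2-fold lower on day 1 and 6.02-fold on day 7, *Alas2*, a heme synthesis gene, was 3.92-fold lower on day 1, and the globin gene *Hbb-bt* was 3.74-fold lower on day 7, each call lost without that heart. With that heart among them, the *Alas2* call was lost without any 1 of 6 hearts, that of *Hbb-bt* without any 1 of 4. The day 7 call of *Slc4a1* was lost without any 1 of 3. The erythroid list had sums of 1617 to 15180 TPM in sham, 1645 to 2542 on day 1 and 1172 to 4821 on day 7. Of 6 atrial genes, 1 was higher and 1 lower on day 1 and 2 were higher and 1 lower on day 7, with *Nppa*, which stressed ventricle also makes, 3.98- and 6.65-fold higher and *Bmp10* lower at both times, its day 1 call lost without sham replicate 4 or any 1 of 3 day 1 hearts. The part of these cells in the changes of the 10 genes and of the other endothelial lists was not tested.

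The genes outside the group whose pattern was most like that of the endothelial genes were found by the root-mean-square difference (RMS) of gene-centred log2 CPM over the 12 libraries. Nearest to the mean of the 7 stable genes were *4931406P16Rik*, *Smo* and *Tcf4*, at 0.089 to 0.095. For *Plvap* they were *Olfml3*, *Rps6ka1* and *Renbp*, at 0.148 to 0.157, and for *Vwf* they were *Sgk1*, which the capillary list also holds, *Ggt5* and *Wnt2b*, at 0.112 to 0.172. The genes nearest to *Apln*, *Dctd*, *Map4k1* and *Nfasc*, were farther, at 0.289 to 0.332. Those nearest to *Aplnr*, *Adamts17*, *Nrep* and *Fap*, were farther still, at 0.343 to 0.411.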

How the data were processed

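Whole-heart RNA sequencing of 3 groups of 4 mice was re-analysed, and groups came from the sample labels. Per the submitters' notes and methods, Cutadapt trimmed the 150-bp read pairs, STAR 2.4.0j mapped them to GRCm38, and RSEM quantified genes. The authors deposited raw counts, whole numbers of reads without normalization, and TPM, which RSEM scales by transcript length and library total. The tool behind the counts and the strand counted are not given in the sources used here.

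Counts were tested with edgeR 4.0.16 in R 4.3.3 (TMM, filterByExpr, quasi-likelihood test, one fit of 12 libraries, FDR below 0.05). Ratios to *Cdh5* were tested with limma 3.58.1 on log2 CPM with a prior count of 2. Single genes also had exact two-sided permutation tests. Alternatives were DESeq2 1.42.0, RLE size factors, library totals alone, no filter, only the groups compared, a replicate block, limma on log2 TPM with pseudocounts of 1 and 0.1 or after TMM scaling, no mitochondrial genes, *Pecam1* as reference, and each heart left out. Settings applied to the other lists were chosen after seeing the data. No 2 libraries of a group agreed within sampling noise (chi-square per degree of freedom at least 9.25).

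The genes, lists and tests were chosen with earlier results of these data known. The rule for named genes took all 10 genes, the 2 called genes of each other list with the largest change against sham at each time and at least 1 CPM, and the 3 genes nearest in pattern. Some items, also under that rule, are not reported here. The code was tested on simulated data for day 7 against sham. There edgeR recovered 200 of 200 changed genes among 15306, with 8 false calls. Recovery of genes that change by a FC under 2, as most of the 10 genes did, was not tested. Figures were drawn with matplotlib 3.10.9.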

Additional observations from a re-analysis of the deposited data

Results flagged for a closer look

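For 7 of the 10 genes the change from sham differed between the AMI days, by edgeR's quasi-likelihood test. Of all genes tested, 24.2% were called higher and 22.8% lower in that comparison. Sham cancels in this difference, so it is the comparison of day 7 against day 1 given above and no further result. The differences in log2 FC were 2.35 for *Aplnr* (adjusted p = 0.000119), 1.01 for *Cdh5* (5.67e-06), 0.72 for *Pecam1* (4.41e-06), 0.71 for *Plvap* (0.0018), 0.63 for *Tie1* (0.000851), 0.55 for *Emcn* (0.000102) and 0.38 for *Esam* (0.00809), each higher on day 7, in 4 of 4 day 7 hearts against every day 1 heart. In 33 tests for a heart that stood apart from the 3 others of its group, on the 10 genes and on the mean gap between activated and stable genes, 0 passed Dixon's 95% critical value, where chance passes about 1 in 20.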

How the results depend on the processing

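TMM scaling held the median log2 FC of all genes near 0, while library totals alone moved it to 0.26, 0.43 and 0.15 (day 1 against sham, day 7 against sham, day 7 against day 1) and log2(TPM + 1) to 0.23, 0.44 and 0.18. With library totals alone 4 of the 10 genes were higher and 0 lower on day 1, 0 were lower on day 7, and 5 passed a FC of 2 on day 7, and on day 1 *Pecam1* and *Cdh5* turned to 0.13 and 0.066. With limma on log2(TPM + 1) and log2(TPM + 0.1) 4 were higher and 1 lower on day 1, 0 were lower on day 7 and 7 passed a FC of 2 on day 7, and 2 passed it on day 1 with the pseudocount of 0.1. On those scales the day 1 values turned to 0.18 for *Pecam1*, 0.13 for *Cdh5*, 0.03 and 0.031 for *Tie1*, 0.11 for *Emcn* and 0.13 and 0.15 for *Aplnr*, *Vwf* on day 7 turned to 0.085 and 0.087, *Apln* from day 1 to day 7 turned to 0.12 and 0.13, and *Jam2* on day 7 turned to 0.20 (0.026 with library totals alone). After TMM scaling of the TPM, 1 gene was lower on day 1. For the settings of this section the share of all genes called is not given, so these counts are not set against it. From day 1 to day 7 a FC of 2 was passed by 1 gene with DESeq2, RLE size factors, no filter or only the groups compared, since *Cdh5* lay at that limit.

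With each heart left out, 2 to 3 genes were higher and 2 to 3 lower on day 1, 8 to 9 higher and 0 to 1 lower on day 7, and 7 higher from day 1 to day 7, of which 1 to 2 passed a FC of 2, and per *Cdh5* the calls were 2 to 4 higher and 0 to 1 lower, 2 to 3 higher and 3 to 5 lower, and 1 higher and 5 to 7 lower. Small day 1 values crossed 0 in these runs, with ranges of -0.016 to 0.131 for *Esam* and -0.56 to 0.13 for *Aplnr*, and per *Cdh5* of -0.28 to 0.31 for *Aplnr*, -0.042 to 0.153 for *Pecam1* and, on day 7, -0.279 to 0.053 for *Cldn5*, while *Apln* from day 1 to day 7 ran from -0.385 to 0.084. With *Pecam1* in place of *Cdh5* 1 gene was lower on day 1 and 2 on day 7, 2 were higher and 3 lower from day 1 to day 7, *Aplnr* on day 1 turned to -0.027 and *Cldn5* on day 7 to 0.16, and with the *Cdh5* count as an offset in edgeR *Aplnr* on day 1 turned to -0.021.

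Replicate numbers are shared between groups, but deviations of same-numbered hearts correlated at -0.24 to 0.23, so the numbers did not pair the samples. With a replicate block the counts of genes called were 2 higher and 2 lower on day 1, 9 and 1 on day 7, and 7 and 0 from day 1 to day 7, and 1 gene became lower per *Cdh5* on day 1. The cause of these shifts was not tested. Each of the 10 genes was above 9 CPM in every heart, whereas *Bmx*, *Tll1* and *Gp1ba* had group means of at most 3.07 CPM, where counting error is larger.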
